A study of Mus musculus with 3 samples.

Results

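Small leucine-rich proteoglycans are secreted matrix proteins, and 8 of their genes, Dcn, Bgn, Aspn, Fmod, Lum, Prelp, Omd and Ogn, were followed here across the stromal cells of the lymph node follicle. They were found by gene symbol among the 51912 genes of the count tables, and each symbol matched 1 row. None of the 8 took part in the sorting of cells into types described below.

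These proteins share a horseshoe-shaped core of leucine-rich repeats that binds collagen fibrils and sets their spacing and width. Decorin (Dcn), biglycan (Bgn) and asporin (Aspn) form one class, in which decorin and biglycan carry chondroitin or dermatan sulfate chains. Fibromodulin (Fmod), lumican (Lum), PRELP (Prelp) and osteomodulin (Omd) form a second class, in which most members can carry keratan sulfate, and osteoglycin (Ogn) to another. Several also bind growth factors, decorin and biglycan binding TGF-β, and in the lymph node the collagen fibers they coat lie within conduits that fibroblastic reticular cells ensheath.

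The cells came from lymph nodes of C57BL/6 mice of genotype CXCL13-TdTomato+, which carry a transgene named Cxcl13-Cre/tdTomato, with TdTomato as a red reporter. The cells were sorted as live PDPN+ CD31- CD45- TdTomato+ cells. All mice had received an antigen-immunocomplex (IC), and no library came from uninjected mice. Of the 3 libraries made with the 10x Genomics 3′ kit, 2 came from mice given 2 ICs, 7 days and 24 hours before analysis (2-IC replicates 1 and 2), and 1 came from mice given 1 IC 24 hours before (1-IC). Lymph nodes of several mice were pooled, and how mice map to libraries is unclear from the sources used here, so that each library counts as 1 sample. The library is a term of the fit, so p-values rest on how far differences between gates vary from library to library. The fit shares that spread over gates and, in part, over genes, so it can be narrower than a gene's own. The spread between libraries may be technical. For the 2-IC libraries the labels' descriptions name different time points while their titles are alike, and the titles were used. The sort was on TdTomato and not on Cxcl13 itself, so it does not show that a cell was making Cxcl13 when taken.

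The 3 libraries held 3790, 1029 and 667 barcodes with 20607903, 12788101 and 3766526 UMIs (molecular barcodes that count each captured RNA once) in 2-IC replicate 1, 2-IC replicate 2 and 1-IC, and values below keep this order of libraries. After filtering, 1526, 391 and 326 cells were retained, with medians of 4700.5, 14732 and 5979 UMIs per cell. The 2-IC libraries shared 76 barcodes, of which 15 were retained in both, 2-IC replicate 1 and 1-IC shared 2, and 2-IC replicate 2 and 1-IC shared 0. Without the shared barcodes, no count of members called differed from the values below by over 1.5 times.

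Cells were divided by raw UMIs of genes outside the family, in a fixed order. The complement receptor Cr2 marks follicular dendritic cells (FDCs), and the study finds it on B cells too. The Cr2 gate took cells with at least 1 UMI of Cr2 and held 230 cells. Of the rest, the Madcam1 gate (83 cells) needed at least 1 UMI of Madcam1, an adhesion molecule of marginal reticular cells (MRCs), and the Tnfsf11 gate (593 cells) at least 1 UMI of the cytokine gene Tnfsf11. The Ccl21a gate (227 cells) then needed at least 20 UMIs of Ccl21a, a T zone chemokine, with at most 1 of Inmt, and the Inmt gate (462 cells) at least 2 UMIs of Inmt, a methyltransferase gene of medullary reticular cells (MedRCs), with under 20 of Ccl21a. A further 122 cells passed both of the last limits and 526 passed none. In the Tnfsf11 gate 131 of 376, 24 of 135 and 24 of 82 cells passed no other limit. Its other cells also had at least 20 UMIs of Ccl21a or 2 of Inmt, so its values include such cells. In the Cr2 gate 45 of 145, 9 of 35 and 17 of 50 cells passed the Cr2 limit alone. Each gate held 16 to 376 cells per library, and UMIs of a gene were summed per library and gate, giving 15 sums scaled to 1000000 UMIs (CPM).

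The gates were described by marker lists as summed CPM, by their range over the 3 libraries. The lists for FDCs, MRCs and interfollicular reticular cells hold Cr2, Madcam1 or Tnfsf11, which the order of gates puts at 0 in every later gate. Part of their differences between gates was thus fixed in advance. The FDC list (Cr2, Fcer2a, Fcgr2b, Clu, Coch, Sox9, Cilp) spanned 13669 to 26793 CPM in the Cr2 gate and 13285 to 20211 in the Madcam1 gate, against at most 6858 elsewhere. The list for T-B border reticular cells (TBRCs) spanned 17935 to 30307 CPM in the Ccl21a gate against at most 8905 elsewhere, but it holds Ccl21a itself and Fmod. The MRC list (Madcam1, Tnfsf11, Cxcl13) was highest in the Cr2 gate (20180 to 54417 CPM) and next in the Madcam1 gate (15648 to 26734 CPM). The MedRC list (Inmt, Nr4a1, Cyp2f2) was highest in the Inmt gate, at 1439 to 2086 CPM against at most 1219 elsewhere, but it holds Inmt itself. In contrast, the list for interfollicular reticular cells, Tnfsf11 and Ch25h, was higher in the Madcam1 gate (500 to 571 CPM) than in the Tnfsf11 gate (268 to 407 CPM), so the gates are called by their genes and not by cell type. Endothelial markers summed to at most 15.9 CPM and T cell markers to at most 14.2 CPM in any gate. The sort took CD31- CD45- cells, and the filter removed cells with UMIs of endothelial or T cell genes such as Cldn5 and Cd3d. These low values were thus largely fixed in advance. Cd74, the MHC class II invariant chain, stood at 182 to 944 CPM over the libraries and gates, and the immunoglobulin gene Igkc, which marks RNA of B cells and plasma cells, at 0 to 799.6 CPM. Both were named after their values were seen, and the part of such RNA in the results was not tested.

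In all retained cells, Dcn gave 135559 UMIs, Bgn 24573, Lum 5109, Ogn 1245, Fmod 842, Prelp 838, Aspn 384 and Omd 92. These are UMIs of the 3′ end and are not scaled by gene length, so they set the precision of each gene and not its abundance beside the others. Omd had 0 to 17 UMIs in any of the 15 sums and was left out of the tests, and the other 7 passed the filter on low counts. The 9 comparisons below all use the same 15 sums, share gates, and were tested with edgeR's quasi-likelihood test with the library as a term, with p adjusted by Benjamini-Hochberg over 8289 genes. A gene could pass the filter through the gate where it was high, so that counts of members called are descriptions. In a sum, fewer cells making a gene and less of it per cell cannot be told apart.

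**Figure D1:**
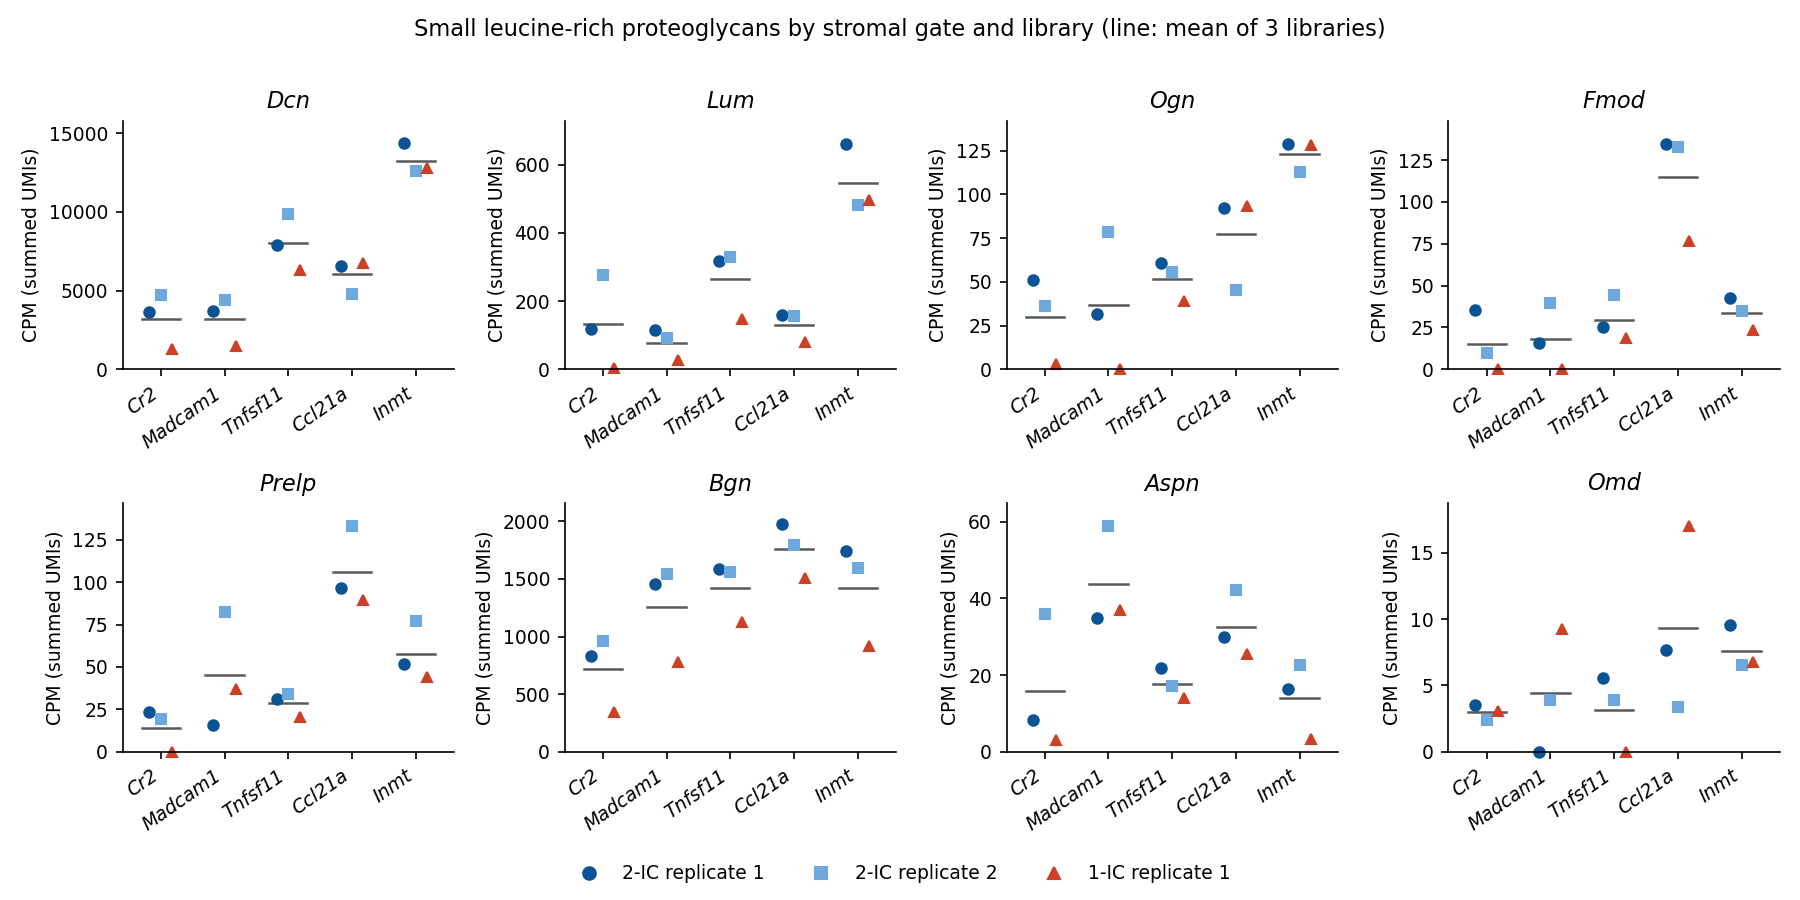
CPM of each of the 8 genes (y axis, 1 panel per gene) by gate (x axis), with 1 point for each of the 3 libraries and a line at their mean. Fmod and Prelp are highest in the Ccl21a gate, Dcn, Lum and Ogn in the Inmt gate, and Omd stays at or below 17.0 CPM in every gate.

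The members divided the gates in different ways. Against the mean of the other 4 gates on the log2 scale, the Ccl21a gate was higher in Fmod, Prelp and Bgn, the Inmt gate was higher in Lum, Dcn and Ogn, and the Cr2 gate was lower in Dcn, Bgn and Prelp. The Madcam1 gate was lower in Dcn and Lum, and the Tnfsf11 gate differed in no member. Aspn was called in none of the 9 comparisons.

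The counts of members called are read against all 8289 genes tested. For the Cr2 gate 3 of 7 members were called where 19.9% of all genes were, for the Madcam1 gate 2 of 7 where 4.42% were, and for the Tnfsf11 gate 0 of 7 where 4.69% were. The Ccl21a gate had 3 of 7 called against 6.3% of all genes, and the Inmt gate 3 of 7 against 14.5%. The median log2 difference of the 7 members was -0.98 in the Cr2 gate, -0.66 in the Madcam1 gate, -0.23 in the Tnfsf11 gate, 0.70 in the Ccl21a gate and 0.62 in the Inmt gate, while that of all genes lay between -0.015 and 0.019. For the 0 of 7 in the Tnfsf11 gate, 3 members had an unadjusted p under 0.05 in edgeR (Dcn, Lum and Prelp), and DESeq2 also called 0.

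Pairs of gates were compared as well. Between the Cr2 and Madcam1 gates 1 of 7 members was called (4.62% of all genes), and between the Madcam1 and Tnfsf11 gates 2 of 7 (4.49%). The Ccl21a and Tnfsf11 gates differed in 2 of 7 (3.14%), and the Ccl21a and Inmt gates in 4 of 7 (4.26%), 2 in each direction.

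**Figure D2:**
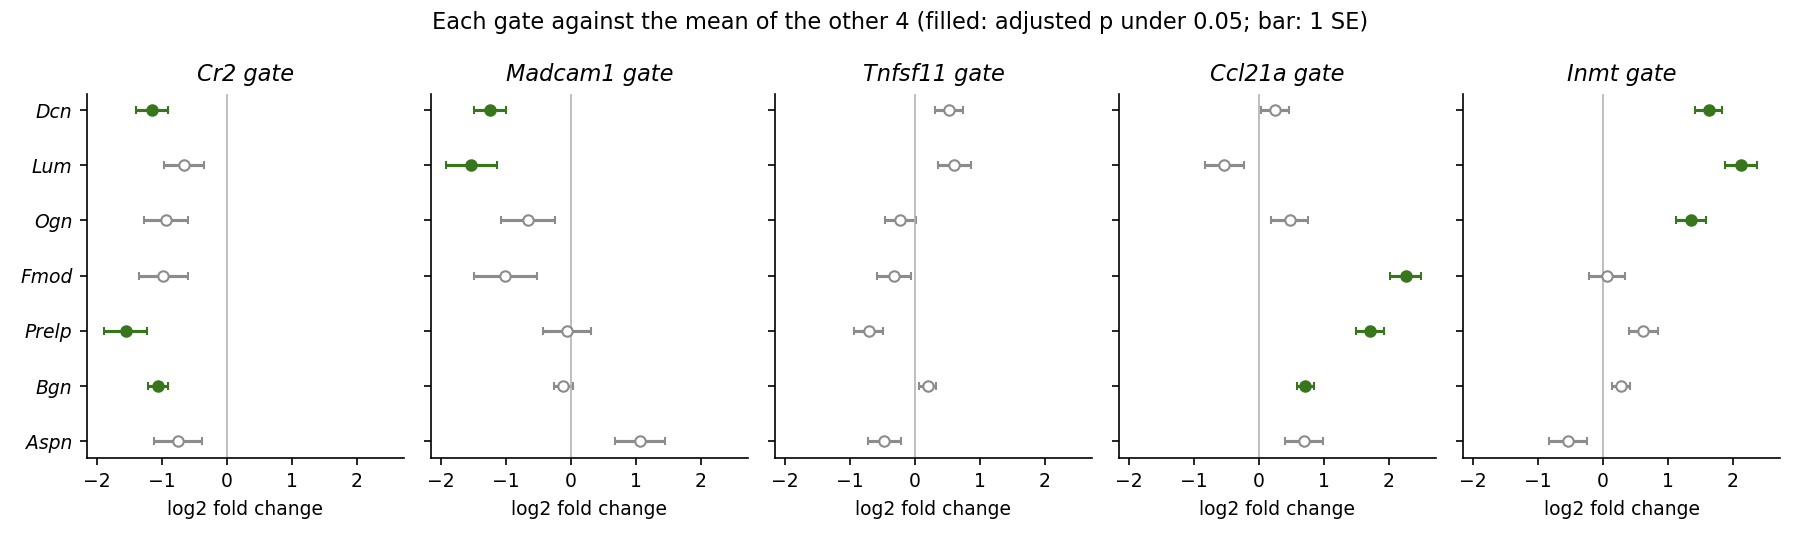
Log2 difference of each tested member (y axis) between a gate and the mean of the other 4 gates, with 1 panel per gate, bars of 1 SE and filled points for an adjusted p under 0.05. Fmod has the largest difference in the Ccl21a gate (2.26) and Lum in the Inmt gate (2.13), and no point is filled in the Tnfsf11 gate.

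Fibromodulin, which binds collagen I and takes part in fibril assembly, set the Ccl21a gate apart from all others. The study had already assigned its TBRC cluster in these data by Fmod and Ccl21a. Fmod stood at 135, 133 and 76.5 CPM in the Ccl21a gate and at 42.7, 34.7 and 23.6 CPM in the Inmt gate. It stood at 25.4, 44.4 and 18.7 CPM in the Tnfsf11 gate. The lowest library of the Ccl21a gate lay above the highest library of every other gate. Levels in the Cr2 gate (35.5, 9.59 and 0 CPM) and the Madcam1 gate (15.9, 39.3 and 0 CPM) overlapped with each other and with the Tnfsf11 gate.

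The Ccl21a gate was 4.78-fold higher in Fmod than the mean of the other gates (log2 difference 2.26 ± 0.24 SE, edgeR quasi-likelihood test, Benjamini-Hochberg adjusted p = 1.16e-06, higher in 3 of 3 libraries). Against the Tnfsf11 gate alone it was 4.19-fold higher (adjusted p = 2.14e-05 in the same edgeR fit), and against the Inmt gate 3.39-fold higher (adjusted p = 0.000309). The Ccl21a gate gave 31.0%, 23.7% and 32.1% of all Fmod UMIs of retained cells while holding 12.5%, 10.5% and 11.6% of all UMIs. Without the library term the adjusted p-values against the Tnfsf11 and Inmt gates alone were 0.0702 and 0.161.

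Fmod lies on chromosome 1 at chr1:134037254-134048277 on the plus strand in GRCm38 (ENSMUSG00000041559), and Prelp at chr1:133910304-133921414 on the minus strand (ENSMUSG00000041577), with 116 kb between them. These neighbors were the only members called higher in the Ccl21a gate against both the Tnfsf11 gate and the Inmt gate, although the Prelp call against the Inmt gate was lost in 13 of 21 alternatives, so the sequence before each start is shown. The stretches run from 220 to 21 bases before the start in RefSeq on GRCm38.p6, at chr1:134037034-134037233 for Fmod and chr1:133921422-133921621 for Prelp, and are written 5′ to 3′ on the gene's own strand.
Fmod: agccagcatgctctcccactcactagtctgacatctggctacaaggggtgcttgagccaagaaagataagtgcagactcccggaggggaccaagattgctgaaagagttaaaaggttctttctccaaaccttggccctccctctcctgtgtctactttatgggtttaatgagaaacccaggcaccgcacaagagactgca
Prelp: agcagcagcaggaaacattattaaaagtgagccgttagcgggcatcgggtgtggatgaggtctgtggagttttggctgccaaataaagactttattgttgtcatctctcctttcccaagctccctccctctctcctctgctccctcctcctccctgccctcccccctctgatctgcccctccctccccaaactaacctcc

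G and C made up 50.5% of the Fmod stretch and 54.5% of the Prelp stretch. Neither held the TATA box letters TATAAA or the AP-1 letters TGANTCA on either strand, which were found in 10.3% and 5.55% of 32851 promoters over the same length. The E-box letters CANNTG matched once in Fmod, 189 bases before the start, and 0 times in Prelp, and were found in 58.6% of promoters. No capitals are printed, as neither the TATA box nor the AP-1 letters matched.

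PRELP, a proline- and arginine-rich member that binds collagen and the heparan sulfate of perlecan, followed Fmod in the Ccl21a gate and was low in the Cr2 gate. Prelp stood at 96.3, 133 and 89.3 CPM in the Ccl21a gate, at 51.6, 76.9 and 43.8 CPM in the Inmt gate and at 31.3, 34.1 and 20.3 CPM in the Tnfsf11 gate. In the Cr2 gate it gave 23.7, 19.2 and 0 CPM. The Ccl21a gate lay above every other gate in all libraries, the Tnfsf11 gate overlapped with the Cr2 gate, and the Madcam1 gate (15.9, 82.6 and 37.1 CPM) overlapped with all but the Ccl21a gate.

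Prelp was 3.26-fold higher in the Ccl21a gate than in the others (log2 difference 1.71 ± 0.22 SE, edgeR, Benjamini-Hochberg adjusted p = 1.06e-05) and 3.82-fold higher than in the Tnfsf11 gate (adjusted p = 1.49e-05). It was 2.95-fold lower in the Cr2 gate than in the others (log2 difference -1.56 ± 0.33 SE, adjusted p = 0.00103). All of these held their direction in 3 of 3 libraries. By library the log2 ratios in the Cr2 gate against the others were -0.71, -1.78 and -4.25, the last on 0 UMIs. They spread more widely than the SE, which is shared over gates and partly over genes. The difference between the Ccl21a and Inmt gates (1.83-fold, adjusted p = 0.0397) was lost when leaving out any 1 of the libraries (adjusted p = 0.287 without 2-IC replicate 1, 0.0916 without 2-IC replicate 2 and 0.0649 without 1-IC).

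Lumican, which is needed for regular collagen fibrils in cornea and skin and also binds CD14, had the opposite bias between the Ccl21a and Inmt gates. Lum stood at 662, 481 and 495 CPM in the Inmt gate and at 158, 155 and 80.8 CPM in the Ccl21a gate. The Tnfsf11 gate lay between them at 317, 329 and 148 CPM. The Inmt gate lay above every other gate in all libraries, and the Tnfsf11 and Ccl21a gates overlapped. In the Madcam1 gate Lum gave 114, 90.5 and 27.8 CPM, below the Tnfsf11 gate in each library. The Cr2 gate varied most, at 118, 276 and 3.11 CPM, the last being 1 UMI.

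The Inmt gate was 4.37-fold higher in Lum than the others (log2 difference 2.13 ± 0.24 SE, edgeR quasi-likelihood test, Benjamini-Hochberg adjusted p = 1.01e-06, 3 of 3 libraries). The Ccl21a gate was 4.37-fold lower than the Inmt gate (adjusted p = 0.000325), which DESeq2 did not call (0.0740). The Madcam1 gate was 2.90-fold lower than the others (log2 difference -1.54 ± 0.39 SE, adjusted p = 0.0209) and 3.28-fold lower than the Tnfsf11 gate (adjusted p = 0.0174). Both Madcam1 calls were lost without 2-IC replicate 1 (adjusted p = 0.189 and 0.176), in cells thinned to the same depth (0.226 and 0.342) and with DESeq2 (0.121 and 0.204). The Cr2 gate against the others (-0.66 on the log2 scale, adjusted p = 0.148) did not pass the test. The Inmt gate gave 39.8%, 28.9% and 39.7% of all Lum UMIs while holding 21.4%, 18.8% and 14.7% of all UMIs.

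The opposite bias of Fmod and Lum can be read as a ratio of UMIs in the same cells, which does not depend on how libraries are scaled. There were 1.17, 1.16 and 1.06 UMIs of Lum per UMI of Fmod in the Ccl21a gate, and 15.5, 13.9 and 21 in the Inmt gate. The Tnfsf11 gate gave 12.5, 7.41 and 7.92. The 95% counting intervals of the Ccl21a gate (at most 2.13 in any library) and of the Inmt gate (at least 9.92) did not overlap. Cells that passed both the Ccl21a and the Inmt limits had ratios in between, of 3.19, 1.68 and 3.50. In the Cr2 gate the ratio was 3.33 and 28.8 in the 2-IC libraries, the latter on 4 UMIs of Fmod, and in 1-IC there were 0 UMIs of Fmod. The ratio in the Madcam1 gate was 7.20 and 2.30 in the 2-IC libraries, and 1-IC had 3 UMIs of Lum and 0 of Fmod.

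**Figure D3:**
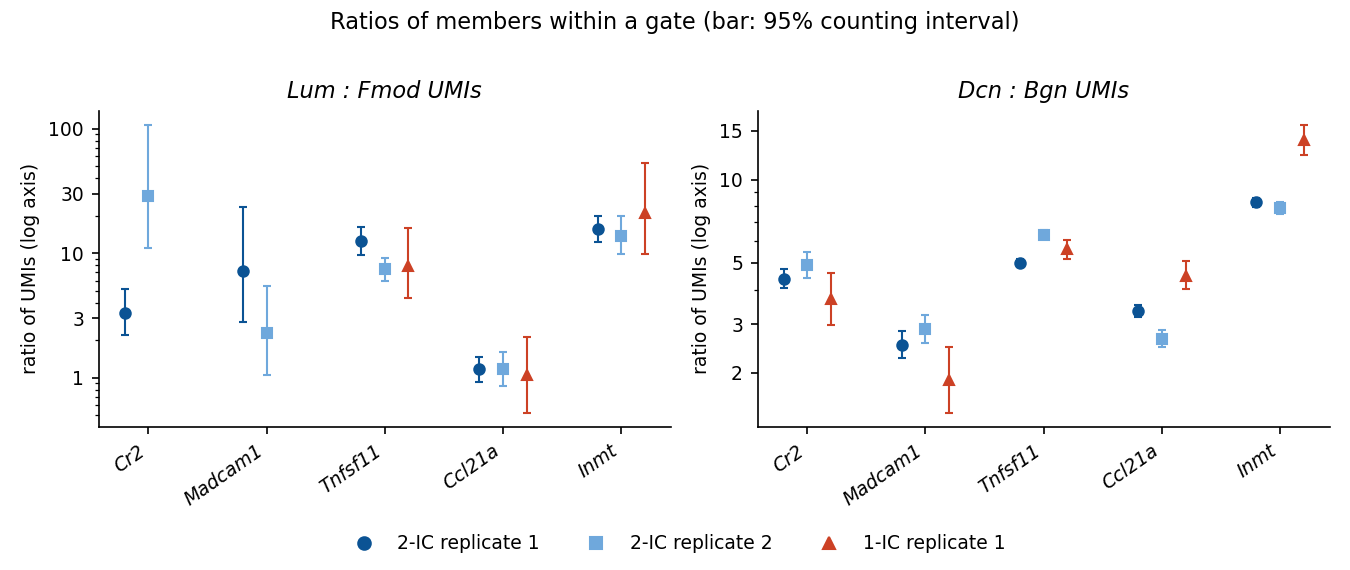
UMIs of Lum per UMI of Fmod and of Dcn per UMI of Bgn (y axis, log scale) by gate, with 1 point per library and 95% counting intervals. Lum per Fmod is 1.06 to 1.17 in the Ccl21a gate and 13.9 to 21 in the Inmt gate. The 1-IC library has no Lum per Fmod point in the Cr2 and Madcam1 gates, where Fmod had 0 UMIs.

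Osteomodulin, a keratan sulfate proteoglycan best known from bone, was near the limit of detection. Omd stood at 9.54, 6.57 and 6.74 CPM in the Inmt gate, at 7.70, 3.37 and 17.0 CPM in the Ccl21a gate and at 5.55, 3.88 and 0 CPM in the Tnfsf11 gate. The Cr2 gate gave 3.55, 2.40 and 3.11 CPM and the Madcam1 gate 0, 3.93 and 9.27 CPM. Neighbors in this order overlapped, while the Inmt gate lay above the Tnfsf11 and Cr2 gates with no overlap, on 2 to 17 UMIs per sum in the Inmt gate, and no test was made.

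Decorin, which binds collagen fibrils and TGF-β, was the member with most UMIs, with its highest level in the Inmt gate. Dcn stood at 14406, 12588 and 12780 CPM in the Inmt gate, so that more than 1% of all UMIs there came from this gene. It stood at 7923, 9891 and 6290 CPM in the Tnfsf11 gate and at 6581, 4770 and 6782 CPM in the Ccl21a gate. The Inmt gate lay above all other gates, and the Tnfsf11 and Ccl21a gates overlapped. Levels were lowest in the Cr2 gate (3648, 4722 and 1276 CPM) and the Madcam1 gate (3687, 4434 and 1464 CPM), which overlapped with each other and with no other gate. The 1-IC library was the lowest of the 3 in both.

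In the Inmt gate Dcn was 3.08-fold higher than in the others (log2 difference 1.62 ± 0.20 SE, edgeR quasi-likelihood test, Benjamini-Hochberg adjusted p = 2.67e-06). It was 2.22-fold lower in the Cr2 gate (-1.15 ± 0.24, adjusted p = 0.000885) and 2.37-fold lower in the Madcam1 gate (-1.24 ± 0.25, adjusted p = 0.00259). Each of these held in 3 of 3 libraries. The Madcam1 gate was 2.67-fold lower than the Tnfsf11 gate (adjusted p = 0.00314), and the Ccl21a gate 2.15-fold lower than the Inmt gate (adjusted p = 0.0201). Without 2-IC replicate 1 the calls for the Madcam1 gate were lost (adjusted p = 0.0825 against the others and 0.0770 against the Tnfsf11 gate), as was that between the Ccl21a and Inmt gates (0.291), which was also lost with DESeq2 (0.0891) and in thinned cells (0.0619).

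Biglycan, the closest relative of decorin, which also acts as a ligand of Toll-like receptors when soluble, varied less. Bgn stood at 1974, 1795 and 1509 CPM in the Ccl21a gate and at 1586, 1563 and 1124 CPM in the Tnfsf11 gate. In the Inmt gate it gave 1739, 1596 and 920 CPM, in the Madcam1 gate 1460, 1542 and 778 CPM and in the Cr2 gate 833, 964 and 346 CPM. The Cr2 gate was the lowest gate in each library and did not overlap with the Ccl21a or Tnfsf11 gate, while every neighboring pair in the order of means overlapped.

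Bgn was 2.09-fold lower in the Cr2 gate than in the others (log2 difference -1.06 ± 0.15 SE, edgeR, Benjamini-Hochberg adjusted p = 6.36e-06) and 1.68-fold lower than in the Madcam1 gate (adjusted p = 0.0134). The Ccl21a gate was 1.64-fold higher than the others (0.71 ± 0.13, adjusted p = 0.00112). In all 3 comparisons the 3 libraries had the same direction. Without 2-IC replicate 1 the adjusted p was 0.0777 for the Ccl21a gate and 0.244 for the Cr2 gate against the Madcam1 gate, and the latter was 0.0983 without cells with under 1% Malat1.

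Dcn and Bgn therefore changed in unequal steps. The number of Dcn UMIs per UMI of Bgn was 8.28, 7.89 and 13.9 in the Inmt gate and 4.99, 6.33 and 5.6 in the Tnfsf11 gate. It was 3.33, 2.66 and 4.49 in the Ccl21a gate and 2.53, 2.88 and 1.88 in the Madcam1 gate. The Inmt gate lay above all others, and the Madcam1 gate was the lowest in 2 of 3 libraries. The Cr2 gate, where both genes were low, had 4.38, 4.90 and 3.69 UMIs of Dcn per UMI of Bgn, above the Madcam1 gate in each library.

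Asporin, which lacks the chains of its class and can hold TGF-β away from its receptor, had its highest mean in the Madcam1 gate. Aspn stood at 34.9, 59.0 and 37.1 CPM in the Madcam1 gate and at 29.8, 42.1 and 25.5 CPM in the Ccl21a gate. It stood at 21.8, 17.3 and 14 CPM in the Tnfsf11 gate and at 8.28, 36.0 and 3.11 CPM in the Cr2 gate. The Madcam1 and Ccl21a gates overlapped, and both lay above the Tnfsf11 gate in every library. The Inmt gate gave 16.3, 22.5 and 3.37 CPM.

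No comparison of Aspn passed the test. The Madcam1 gate against the others gave a log2 difference of 1.06 ± 0.38 SE (edgeR, Benjamini-Hochberg adjusted p = 0.127, higher in 3 of 3 libraries), against the Tnfsf11 gate 1.23 (adjusted p = 0.0936) and the Cr2 gate against the Madcam1 gate -1.45 (adjusted p = 0.106). The Madcam1 values rest on 11, 15 and 4 UMIs.

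Osteoglycin, also called mimecan, which carries keratan sulfate in cornea, resembled Dcn and Lum. Ogn stood at 129, 113 and 128 CPM in the Inmt gate and at 92.4, 45.5 and 93.5 CPM in the Ccl21a gate. The Tnfsf11 gate gave 61.1, 55.7 and 39.0 CPM. The Inmt gate lay above every other gate in all libraries, and the remaining gates overlapped, with 31.7, 78.7 and 0 CPM in the Madcam1 gate and 50.9, 36.0 and 3.11 CPM in the Cr2 gate. Ogn was 2.56-fold higher in the Inmt gate than in the others (log2 difference 1.35 ± 0.23 SE, edgeR, Benjamini-Hochberg adjusted p = 0.000144, 3 of 3 libraries). In the Cr2 gate the difference of -0.94 missed the threshold (adjusted p = 0.0505).

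Depth and RNA of other cells differed between gates. Without the filter on contaminant genes the Cr2 gate held 483, 148 and 125 cells in place of 145, 35 and 50. With a limit of 2 UMIs of Cr2 it held 83, 27 and 39 cells. The Cr2 gate had medians of 4836.5 to 10091 UMIs per cell and the Tnfsf11 gate 6037.5 to 16914. Malat1, a nuclear RNA, took 5.88%, 10.1% and 10.7% of UMIs in the Cr2 gate and 3.41%, 6.18% and 7.81% in the Inmt gate, and the myeloid list (Lyz2, Tyrobp, Fcer1g, Cd52) summed to 81.5 to 206 CPM in the Cr2 gate and 16.9 to 45.5 CPM in the Inmt gate. The part of these differences, or of RNA of B cells, in the lower Dcn, Bgn and Prelp of the Cr2 gate was not tested. Without cells with under 1% Malat1, the log2 differences of the Cr2 gate were -1.02 for Dcn, -0.88 for Bgn and -1.46 for Prelp, each with an adjusted p of at most 0.00230 in edgeR. The adventitial fibroblast list (Cd34, Ly6a, Pi16, Dpt, Clec3b, Ly6c1) summed to 1420 to 1938 CPM in the Inmt gate, 1185 to 2266 CPM in the Ccl21a gate, 699 to 974 CPM in the Tnfsf11 gate and at most 617 CPM in the other 2, with Pi16 at or near 0 and Ly6c1 at 0 because the filter removes cells that hold it. The part of such cells in the Dcn, Lum and Ogn of the Inmt gate was not tested. Perivascular markers summed to 603 to 1455 CPM in all gates.

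To compare cells at the same depth, each was thinned to 2000 UMIs, which left out 33 cells of the Cr2 gate, 9 of the Madcam1 gate, 27 of the Tnfsf11 gate, 8 of the Ccl21a gate and 24 of the Inmt gate. Barcodes with Cd79a and Cd79b and no Pdpn or Pdgfrb, called B cell barcodes here, gave the share in a cell type that should lack these genes (622, 105 and 175 barcodes with medians of 4109, 6147 and 3189 UMIs). Their UMIs were uneven, with 613 UMIs of Dcn in 20 of the 175 barcodes of 1-IC, so these shares can hold barcodes with RNA of a stromal cell as well as free RNA. At this depth Fmod was found in 19.2%, 36.4% and 10.0% of cells of the Ccl21a gate, in 6.58%, 4.11% and 2.17% of the Inmt gate and in 0.741%, 0.971% and 0.606% of B cell barcodes. Unthinned, the mean over libraries was 42.3% in the Ccl21a gate and 11% in the Inmt gate. The Ccl21a gate was above the Inmt gate in each library, as in the sums.

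Lum was found in 43.3%, 38.4% and 41.3% of thinned cells of the Inmt gate, in 20.5%, 15.2% and 10.0% of the Ccl21a gate and in 6.30%, 3.88% and 2.42% of B cell barcodes. In the Cr2 gate Lum was in 18.2%, 20.6% and 2.38% of cells, and the last share is not above that of B cell barcodes. The Madcam1 gate gave 6.67%, 7.14% and 0%, on 3, 1 and 0 cells, which is not clearly above B cell barcodes in any library. Ogn was found in 16.6%, 15.1% and 21.7% of the Inmt gate against at most 1.85% of B cell barcodes, and Prelp in 12.8%, 27.3% and 6.67% of the Ccl21a gate against at most 0.741%.

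Dcn reached 100% of the Inmt gate in all libraries and 83.5%, 76.5% and 47.6% of the Cr2 gate, against 35.6%, 20.4% and 8.48% of B cell barcodes. Bgn was in 91.3%, 92.4% and 90.9% of the Tnfsf11 gate and in 54.5%, 52.9% and 26.2% of the Cr2 gate, against 16.9%, 9.71% and 6.06% of B cell barcodes. So Dcn and Bgn were lower in the Cr2 gate also in the share of cells at equal depth, and they stood above the B cell barcodes there. Prelp was in 2.48%, 2.94% and 0% of the Cr2 gate, on 3, 1 and 0 cells, and in 3.35%, 3.05% and 2.60% of the Tnfsf11 gate. The Madcam1 gate gave 2.22%, 21.4% and 6.67% and the Inmt gate 7.84%, 15.1% and 2.17%. The Cr2 gate lay below the Ccl21a gate in each library, and with so few cells its place beside the Tnfsf11 gate cannot be read. B cell barcodes held 4233, 614 and 613 UMIs of Dcn, in 335, 48 and 20 barcodes.

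**Figure D4:**
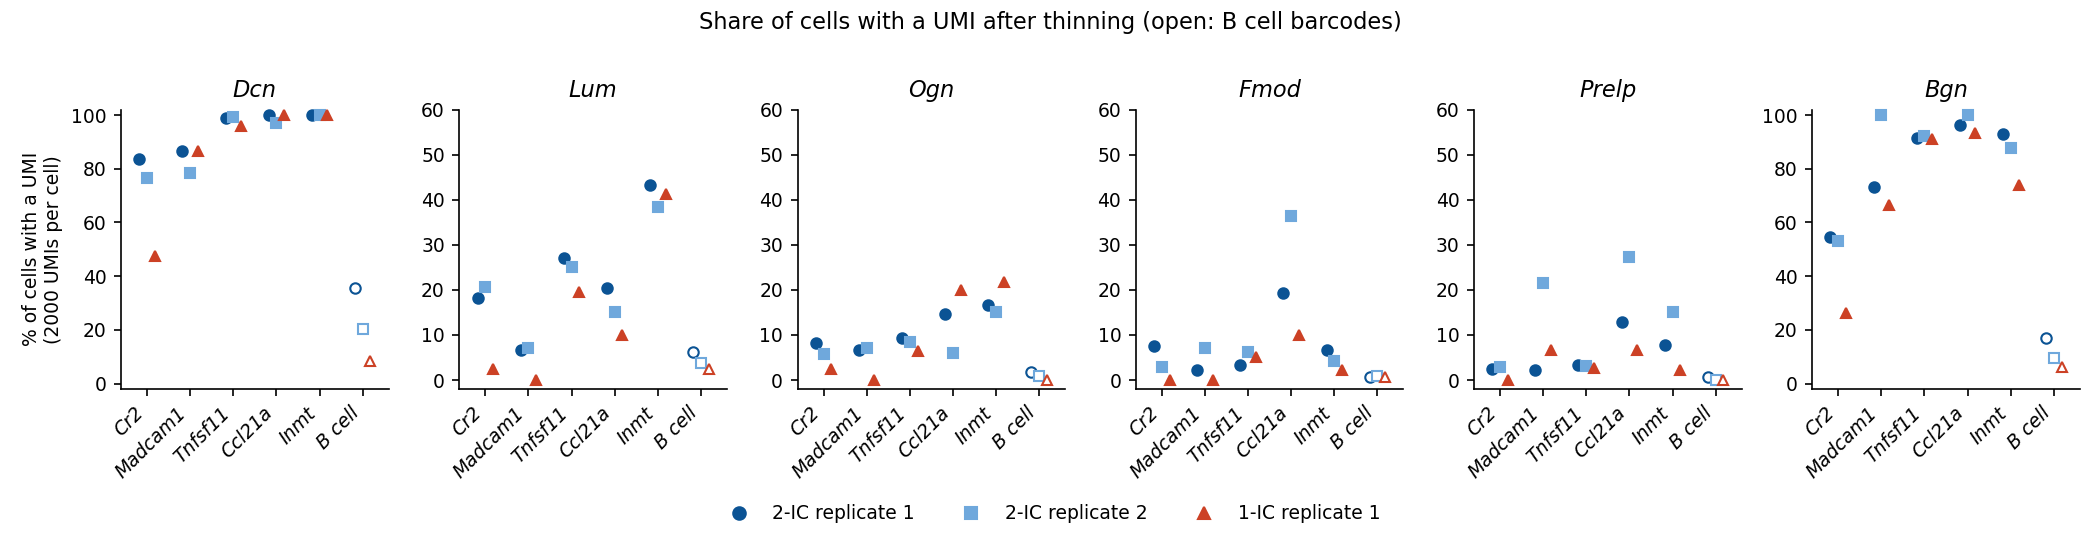
Share of cells (%, y axis) with at least 1 UMI of Dcn, Lum, Ogn, Fmod, Prelp or Bgn after each cell was thinned to 2000 UMIs, by gate, with filled points for libraries and open points for B cell barcodes. Fmod is in 10.0% to 36.4% of the Ccl21a gate and in at most 0.971% of B cell barcodes, and Dcn is in 100% of the Inmt gate.

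Cells outside the 5 gates give 2 further readings. Cells with both Ccl21a and Inmt held Fmod at 129, 147 and 71.7 CPM, overlapping with the Ccl21a gate and above every other gate, and Lum at 411, 247 and 251 CPM, below the Inmt gate. Their Dcn of 9979, 9229 and 9856 CPM lay below the Inmt gate and above the Ccl21a gate in every library, and their Ogn (157, 123 and 71.7 CPM) overlapped with both. Cells that met none of the limits, with medians of 1844 to 2714 UMIs, held Dcn at 8153, 5850 and 5780 CPM and Fmod at 52.6, 48.1 and 35.7 CPM. Aspn in these cells was 22.1, 88.1 and 3.25 CPM, and its level of 2-IC replicate 2 was above that of every gate.

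The 1-IC group has 1 library, so it is set beside the 2-IC libraries with no test. In the Inmt gate Dcn was 12780 CPM in 1-IC against 14406 and 12588 in 2-IC, and Ogn was 128 against 129 and 113. Fmod in the Ccl21a gate was 76.5 CPM in 1-IC against 135 and 133, on 18 UMIs in 1-IC. Over all retained cells each of the 7 tested members was lower in 1-IC than in either 2-IC library, with Dcn at 6365 against 8714 and 8820 CPM and Bgn at 1002 against 1614 and 1602 CPM. The same held for all 7 in the Cr2 gate (Dcn at 1276 against 3648 and 4722 CPM) and in the Tnfsf11 gate (Dcn at 6290 against 7923 and 9891 CPM). In the Cr2 gate of 1-IC, however, Aspn, Lum and Ogn had 1 UMI each and Fmod and Prelp 0. Of all UMIs of retained cells, the Cr2 gate held 15.9% in 1-IC against 10.1% and 7.35% in 2-IC. For the Inmt gate these shares were 14.7% against 21.4% and 18.8%. The part of this mix of cells in the values over all retained cells was not tested. IC number, the day of the experiment and the library cannot be told apart here.

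Most members lie in 3 clusters of the family. On chromosome 10, Dcn (chr10:97479609-97518143, plus strand, ENSMUSG00000019929) and Lum (chr10:97565128-97572703, plus strand, ENSMUSG00000036446) are 47.0 kb apart, and both were highest in the Inmt gate. Prelp and Fmod on chromosome 1 were both highest in the Ccl21a gate. On chromosome 13, Aspn (chr13:49544443-49567565, ENSMUSG00000021388), Omd (chr13:49582462-49592822, ENSMUSG00000048368) and Ogn (chr13:49608046-49624501, ENSMUSG00000021390) follow each other on the plus strand with gaps of 14.9 and 15.2 kb, and Aspn and Ogn differed in their highest gate. Bgn is on chromosome X (73483602 to 73495933, plus strand, ENSMUSG00000031375). These are positions of GRCm38 in the GENCODE M21 annotation.

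The chromosome 13 genes all lie inside Cenpp, a centromere protein gene on the opposite strand, whose level was at most 9.27 CPM in any sum, and the part of its reads in these genes was not tested. Beside Aspn, 11.7 kb before it, lies Ecm2, another leucine-rich matrix gene. The stretch before Aspn is shown because it alone of the 6 members with a promoter entry held the TATA box letters, here in capitals on either strand, at 207 and 178 bases before its start (chr13:49544223-49544422, plus strand, RefSeq on GRCm38.p6).
Aspn: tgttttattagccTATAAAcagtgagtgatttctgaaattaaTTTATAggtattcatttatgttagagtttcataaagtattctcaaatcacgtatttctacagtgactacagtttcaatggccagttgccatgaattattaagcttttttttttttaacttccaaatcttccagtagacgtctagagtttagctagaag

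Across the 15 sums, which share libraries and depth, the members' log2 CPM (prior count 2) were correlated as a description. Dcn went with Lum (r = 0.91) and Ogn (0.91), Bgn with Fmod (0.86) and Prelp (0.83), and Fmod with Prelp (0.79). After centering within libraries these were 0.92, 0.90, 0.82, 0.86 and 0.78. Ogn also went with Fmod (0.84, and 0.80 after centering) and with Lum (0.81, and 0.76 after centering). Fmod and Lum had r = 0.62, falling to 0.50 after centering, and Dcn and Aspn -0.03, falling to -0.21. The genes most like each member by r over the 15 sums were Nnmt, Ebf1 and Adh1 for Dcn (0.97 each), Mmp2 (0.96), Lepr (0.95) and Gas1 (0.94) for Lum, and Cxcl1, Klf4 and Ccl11 for Ogn (0.95 each). Bgn was most like Col6a1 (0.97), 2610001J05Rik (0.96) and Col6a2 (0.95), Fmod most like Ccl7 (0.93), Lpl (0.92) and Rpl12 (0.92), Prelp most like Cbfa2t3 (0.93), Lhfp (0.90) and Mme (0.90), and Aspn most like Kbtbd2 (0.89), Lifr (0.88) and Stxbp5 (0.86).

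Other genes of the same biology were read from the same fit, as lists of fixed membership. Their counts stand against the shares of all genes called, 19.9% in the Cr2 gate, 4.42% in the Madcam1 gate, 4.69% in the Tnfsf11 gate, 6.3% in the Ccl21a gate and 14.5% in the Inmt gate. Of 10 further leucine-rich proteoglycans 3 were tested. Ecm2 was lower in the Cr2 gate (log2 difference -1.10, edgeR, Benjamini-Hochberg adjusted p = 0.00245) and higher in the Tnfsf11 (1.08, adjusted p = 0.000398) and Inmt gates (1.38, adjusted p = 4.98e-06), and podocan (Podn) was higher in the Inmt gate (1.13, adjusted p = 0.0260). For Tsku no gate was called against the others. Thus Dcn, Lum, Ogn, Ecm2 and Podn were all higher in the Inmt gate.

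The collagens that these proteins coat were mostly lower in the Cr2 gate and higher in the Inmt gate. Of 11 fibrillar collagens and partners 10 were tested, and in the Cr2 gate 8 were lower and 1 higher, with Col1a2 at -1.13, Col3a1 at -1.50 and Col6a3 at -2.30. The Inmt gate had 8 higher and 0 lower, with Col1a1 at 0.77 and Col3a1 at 1.00. Collagen VI, whose chains bind decorin and biglycan, made up the 3 called in the Ccl21a gate (Col6a1 0.76, Col6a2 0.92 and Col6a3 0.75). In the Madcam1 gate, where Dcn was lower, edgeR and DESeq2 called 0 of 10 collagens, 3 having an unadjusted p under 0.05 in edgeR, with Col3a1 at -0.79 (adjusted p = 0.0615) and Col1a2 at -0.54 (adjusted p = 0.0853). In the Tnfsf11 gate Col6a3 (0.74) and Col5a1 (0.57) were higher and Col14a1 lower (-1.73). Of 8 tested enzymes of collagen crosslinking and propeptide removal 6 were lower in the Cr2 gate, 4 higher in the Ccl21a gate (Bmp1 by 1.28) and 3 in each of the Tnfsf11 and Inmt gates. Pcolce2, an enhancer of procollagen cleavage, was among the latter in both, at 2.66 and 3.14.

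The enzymes that build the sugar chains are given by chain type, and the types were not tested against each other. Of 14 tested enzymes for chondroitin and dermatan sulfate the Cr2 gate had 1 higher (Xylt1, which starts the chain, 1.87) and 1 lower (Chst15, -1.08), and the Inmt gate 1 higher (Chst15, 1.00). Of 8 keratan sulfate genes 3 were tested. The sulfotransferase Chst2 was higher in the Cr2 gate (2.38, adjusted p = 6.13e-11 in edgeR) and lower in the Ccl21a (-1.43) and Inmt gates (-1.25), and Chst1 was higher in the Cr2 gate (1.32) and lower in the Inmt gate (-1.38). B4galt1, a galactosyltransferase, went the other way, lower in the Cr2 gate (-0.65, adjusted p = 0.0438) and higher in the Inmt gate (0.55, adjusted p = 0.0289). Chst2 stood at 247 ± 114 CPM in the Cr2 gate and 27.5 ± 9.90 in the Inmt gate (mean ± SD, n = 3 libraries). A relation of these enzymes to the levels of the members was not tested. Both Chst1 and Chst2 also sulfate chains other than keratan sulfate.

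Among 7 tested receptors that bind these proteoglycans, Met, the HGF receptor that decorin can bind, was higher in the Cr2 gate (log2 difference 5.66, edgeR, Benjamini-Hochberg adjusted p = 1.19e-11) and in the Madcam1 gate (3.11). Its level was 77.8 ± 30.3 CPM in the Cr2 gate and 28.7 ± 31.3 in the Madcam1 gate, and under 1 CPM in the others, opposite to Dcn. Lrp1, an endocytic receptor of decorin, was lower, as Dcn was, in the Cr2 (-1.36) and Madcam1 gates (-1.07) and higher in the Inmt gate (1.24). It was also higher in the Ccl21a gate (0.68), where Dcn was not called (0.24, adjusted p = 0.633). Cd44 and Egfr were lower in the Cr2 gate (-1.06 and -0.59), Egfr was higher in the Inmt gate (0.62), and Cd14 was higher in the Ccl21a gate (0.90).

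Of 10 tested genes of the TGF-β axis, 1 was higher and 3 lower in the Cr2 gate, 2 higher and 1 lower in both the Madcam1 and Ccl21a gates, 0 higher and 1 lower in the Tnfsf11 gate and 3 higher and 1 lower in the Inmt gate. The latent TGF-β binding proteins Ltbp2 (1.57) and Ltbp1 (1.2) were higher in the Madcam1 gate, and Ltbp4, of the same family, was lower there (-1.05). Ltbp2 was lower in the Inmt gate (-1.12) and the Ccl21a gate (-0.64), while Ltbp4 was higher in both (0.61 and 0.95). Tgfbi, a collagen-binding target of TGF-β, was lower in the Cr2 gate (-1.37) and higher in the Ccl21a gate (0.79). Of 11 tested large and cell surface proteoglycans the Inmt gate had 7 higher and 3 lower and the Cr2 gate 2 higher and 5 lower. Gpc3 (2.88) and Vcan (1.59) were higher in the Inmt gate, and Gpc1 was higher in the Cr2 gate (2.41) and lower in the Inmt gate (-2.30).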

How the data were processed

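The authors used Cell Ranger (5.0.0 in the file headers) with GRCm38 to align reads and deposited raw UMI counts per gene and barcode for barcodes kept as cells, without normalization. Barcodes with fewer than 200 genes, over 10% mitochondrial UMIs or any UMI of 13 contaminant genes were left out, after the study's methods, leaving 2243 of 5486, of which 1595 fell in 1 of 5 gates. No doublet caller was used. Counts were summed per library and gate (at least 5 cells), since cells are not replicates, and fitted in edgeR 4.0.16 (R 4.3.3) with TMM, filterByExpr and the library as a block, because sums of a library share 1 cell suspension. Calls had a Benjamini-Hochberg adjusted p under 0.05. The fit left 8 residual degrees of freedom per gene, to which edgeR adds by sharing spread over genes. DESeq2 1.42.0, other gate limits, filters and thinning were alternatives. Figures used matplotlib 3.10.9.

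The members and lists were chosen with earlier results of these data known. Named genes are the 8 members, the 3 genes of each list with the highest mean CPM, up to 5 called genes per list and comparison by size, and the 3 genes most correlated with each member. Mean ± SD is over 3 libraries, and counting intervals (exact, 95%) cover counting error only. SE was worked back from the test, as the size of the log2 difference divided by the square root of the quasi-likelihood F statistic. In simulated counts for the Ccl21a gate, 0 of 7752 genes were called with none changed, and where 200 of 7651 had a log2 change of 1, 133 were called, 125 of them changed. These counts came from 1 mean profile and 1 dispersion (0.0155) for all genes, with no library effect and no differences among the other gates. They therefore do not give the error rate in the real counts. RefSeq had no promoter entry used here for Dcn and Lum. One further marker list is not reported here.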

Additional observations from a re-analysis of the deposited data

Results flagged for a closer look

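For 4 member comparisons the 2-IC libraries both moved one way and the 1-IC library the other, which was not tested, as 1-IC is 1 library. Ogn in the Tnfsf11 gate against the other gates had log2 ratios of -0.18 and -0.22 in 2-IC replicates 1 and 2 and 0.99 in 1-IC. In 1-IC, Ogn had 1 UMI in the Cr2 gate and 0 in the Madcam1 gate. There the Tnfsf11 gate (39.0 CPM) lay below the Ccl21a (93.5 CPM) and Inmt gates (128 CPM). Lum in the Ccl21a gate against the others had -0.45 and -0.69 in the 2-IC libraries and 0.60 in 1-IC. In 1-IC, Lum had 1 UMI in the Cr2 gate and 3 in the Madcam1 gate. There the Ccl21a gate (80.8 CPM) lay below the Tnfsf11 (148 CPM) and Inmt gates (495 CPM). Lum in the Cr2 gate against the Madcam1 gate had 0.15 and 1.61 in the 2-IC libraries and -2.28 in 1-IC, where it rests on 1 UMI in the Cr2 gate and 3 in the Madcam1 gate. Dcn in the Ccl21a gate against the Tnfsf11 gate had -0.14 and -0.99 in the 2-IC libraries and 0.21 in 1-IC. None of these 4 comparisons was called in the fit over all libraries.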

How the results depend on the processing

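The 20 calls of members were recomputed under up to 22 alternatives, which kept 385 of 432 pairs of call and alternative, lost 47 and reversed 0. The calls kept in all of them were Bgn and Prelp in the Cr2 gate, Fmod and Prelp in the Ccl21a gate, Dcn, Lum and Ogn in the Inmt gate (each against the others) and Prelp between the Ccl21a and Tnfsf11 gates. In cells thinned to 2000 UMIs before gating, Dcn, Bgn and Lum alone passed the filter on low counts, so the others have no value there. Limits of Ccl21a relative to a cell's UMIs and leaving out shared barcodes were chosen after seeing the data. Of 198 counts of called members 159 were within 1.5 times the reported count, and the cause of the other changes was not tested. Most counts below stand without the share of all genes called in the same alternative. A change in them is therefore not read as a result about the members.

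The Cr2 gate against the others (3 called) had 6 with a Cr2 limit of 2 UMIs, 5 with a Ccl21a limit of 50 UMIs, 6 without the filter on contaminant genes, 6 without the filter on low counts and 3 to 5 when 1 library was left out. The Madcam1 gate against the others (2) had 1 with a Cr2 limit of 2 UMIs, 4 with a Madcam1 limit of 2 UMIs, 1 with thinned cells, 4 without the contaminant filter, 1 with DESeq2 and 0 to 2 with 1 library left out. The Tnfsf11 gate against the others (0) had 1 each with a Tnfsf11 limit of 2 UMIs, thinned cells, no contaminant filter and the top 5% of cells by UMIs left out, 2 without the filter on low counts and 0 to 1 with 1 library left out. With exclusive gates (cells that pass the limit of 1 gate alone) the Ccl21a gate (3) had 6 and the Inmt gate (3) had 5, and without the contaminant filter the Inmt gate had 6. Exclusive gates left the Madcam1 gate with 1 library of 13 cells, so that the 0 members then called in each of its 3 comparisons (against the others, the Cr2 gate and the Tnfsf11 gate) say nothing on the gate.

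The Cr2 against the Madcam1 gate (1) had 2 with a Cr2 limit of 2 UMIs, 3 without the contaminant filter and 0 without cells under 1% Malat1. The Madcam1 against the Tnfsf11 gate (2) had 1 with a Tnfsf11 limit of 2 UMIs, 1 with thinned cells, 1 with DESeq2 and 0 to 2 with 1 library left out. Thinned cells gave 0 for the Ccl21a against the Tnfsf11 gate (2) and 1 for the Ccl21a against the Inmt gate (4), which also had 1 with DESeq2 and 2 to 3 with 1 library left out.

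Without the replicate block, that is, with no library term although the sums of a library come from 1 cell suspension, members called fell to 0 for the Madcam1 gate against the others, the Cr2 against the Madcam1 gate, the Madcam1 against the Tnfsf11 gate and the Ccl21a against the Inmt gate, and to 1 for the Ccl21a against the Tnfsf11 gate. Dcn in the Cr2 gate then had an adjusted p of 0.0725 in edgeR and Bgn in the Ccl21a gate 0.421. Over all genes the Cr2 gate had 736 called without the block against 1652 with it, the Tnfsf11 gate 3 against 389, and the Inmt gate 359 against 1201.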
